A study of Homo sapiens with 4 samples.

Results

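The 22Rv1 arm of the study set 1 library of cells given 75 µM morusin beside 1 library of untreated cells, which makes 2 of the 4 libraries of the series. 22Rv1 is an established human prostate carcinoma epithelial line, and morusin is a prenylated flavone from mulberry root bark. Both libraries came from cells kept in RPMI medium with heat-inactivated fetal bovine serum, penicillin and streptomycin, and the treated cells had the compound for 6 h. The labels name no vehicle for the untreated cells. The other 2 libraries were PC3, another established prostate cancer line, grown in F12 medium, without morusin and with 46 µM for 6 h. Line, medium and dose differ together between the lines, so PC3 values are set beside those of 22Rv1 without a test of the difference.

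Expression was read as FPKM, the number of sequenced fragments scaled to transcript length and to the mapped fragments of the library, for 60617 genes. A gene is called measured if untreated or treated 22Rv1 reached 1 FPKM, which 13361 genes did, and the change of a gene is log2 of treated FPKM + 1 over untreated FPKM + 1. This scale understates the change of genes with low levels. A gene that reached 1 FPKM in treated or in untreated 22Rv1 alone must lie on that library's side of 0. Counts above or below 0 in groups of low-level genes are therefore partly set by the rule for measured genes. With 1 library per group no difference has a replicate check and no test was possible, so genes and gene groups are described by their values. In bulk RNA, fewer cells of a kind and less RNA per cell cannot be told apart. The spacing of the lowest FPKM values gave rough depths of 23.5 M read pairs for untreated and 19.1 M for treated 22Rv1, which may be wrong by a factor of 2. At those depths 1 FPKM of a gene of 2 kb is 46.9 and 38.2 read pairs, and the counting error of the named genes with 10 or more pairs in both libraries had a median of 0.0629 on the log2 scale (535 genes). That error covers counting alone.

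The luminal prostate identity of the line was present in both libraries: 12 of 12 luminal markers had 1 FPKM or more, with a summed level of 1252 FPKM untreated and 1197 FPKM treated. The luminal keratins KRT8 and KRT18 read 107 and 103 FPKM untreated against 114 and 115 FPKM treated. Of the basal markers KRT5, KRT14 and TP63, none reached 1 FPKM and 2 were listed at 0 in both libraries. None of 7 leukocyte and none of 5 endothelial markers reached 1 FPKM, and of 6 fibroblast markers LUM alone did, at 1.76 FPKM in each library.

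Several of the stress systems described here are well known. Metallothioneins are small cysteine-rich proteins that bind zinc and other metals, and their genes are switched on by the zinc-sensing factor MTF1 through metal response elements in the promoter. Heat shock genes are switched on by HSF1, a factor held inactive by chaperones until unfolded proteins draw the chaperones away, through repeated GAA units facing each other. TXNIP, an arrestin that binds thioredoxin and limits glucose uptake, is driven by the glucose-sensing factors MondoA and ChREBP through paired E-box-like elements.

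To show what these elements look like in the genes with the clearest differences, RefSeq promoter sequences (GRCh38.p14, 250 bases before to 50 bases after the transcription start, written 5′ to 3′ on the gene's strand) follow, with matches in capitals. Capitals mark the core of the metal response element, TGCNCNC on either strand, in MT2A and MT1X. In HSPA6 they mark 3 alternating heat shock units, GAANNTTCNNGAA or its reverse complement, and in HSPA1A a pair of units, GAANNTTC or TTCNNGAA. In TXNIP they mark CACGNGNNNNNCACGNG, the paired E-box form. The sequences lie at chr16:56608334-56608633 (plus strand), chr16:56682220-56682519 (plus), chr1:161524290-161524589 (plus), chr6:31815293-31815592 (plus) and chr1:145996530-145996829 (minus).
MT2A: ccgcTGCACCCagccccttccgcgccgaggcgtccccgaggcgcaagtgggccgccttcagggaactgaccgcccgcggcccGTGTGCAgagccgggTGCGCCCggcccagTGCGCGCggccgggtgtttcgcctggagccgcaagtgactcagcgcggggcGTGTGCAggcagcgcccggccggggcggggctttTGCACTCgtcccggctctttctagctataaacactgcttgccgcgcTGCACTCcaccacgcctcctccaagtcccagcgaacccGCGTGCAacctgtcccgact
MT1X: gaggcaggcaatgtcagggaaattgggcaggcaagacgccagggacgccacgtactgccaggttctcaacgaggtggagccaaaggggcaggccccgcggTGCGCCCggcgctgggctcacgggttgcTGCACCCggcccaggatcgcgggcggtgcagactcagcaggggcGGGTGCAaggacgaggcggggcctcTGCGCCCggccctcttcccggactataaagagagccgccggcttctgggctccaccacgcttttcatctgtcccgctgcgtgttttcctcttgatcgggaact
HSPA6: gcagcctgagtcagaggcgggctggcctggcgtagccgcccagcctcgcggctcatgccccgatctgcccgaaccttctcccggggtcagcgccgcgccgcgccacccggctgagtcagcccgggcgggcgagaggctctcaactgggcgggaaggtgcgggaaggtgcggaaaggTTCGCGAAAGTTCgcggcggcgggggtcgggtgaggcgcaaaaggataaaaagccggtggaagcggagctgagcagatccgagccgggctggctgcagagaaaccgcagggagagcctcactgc
HSPA1A: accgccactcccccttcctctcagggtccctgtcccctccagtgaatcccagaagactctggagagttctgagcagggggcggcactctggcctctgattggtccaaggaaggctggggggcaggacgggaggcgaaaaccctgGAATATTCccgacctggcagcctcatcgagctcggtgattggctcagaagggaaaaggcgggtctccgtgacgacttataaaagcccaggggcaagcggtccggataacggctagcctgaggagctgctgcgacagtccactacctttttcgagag
TXNIP: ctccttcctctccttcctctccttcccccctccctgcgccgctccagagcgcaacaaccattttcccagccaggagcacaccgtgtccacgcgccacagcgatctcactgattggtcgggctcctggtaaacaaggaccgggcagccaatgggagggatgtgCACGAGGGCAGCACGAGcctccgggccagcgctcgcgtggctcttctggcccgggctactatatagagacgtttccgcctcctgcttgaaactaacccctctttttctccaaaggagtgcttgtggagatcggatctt
The metal element core is common, being found in 55.9% of the 35116 RefSeq promoters of this length, but 4 or more matches, as in MT1X, occurred in 2.94% and 8 or more, as in MT2A, in 0.0712%. The matches of MT2A ran from base -246 to base 37 counted from the start, with no base 0, and those of MT1X from -150 to -47. The 3-unit heat shock match was found in 0.490% of promoters and lay at -74 to -62 in HSPA6. The 2-unit form, which the 3-unit form contains, was found in 13.5% and lay at -106 to -99 in HSPA1A, at -105 to -98 in HSPA1B, and in 2 of the 3 promoters listed for DNAJB1, at -77 to -70 and -47 to -40 in one and at 2 to 9 in the other. The promoter of HSPH1 held 0 matches of it. The paired E-box form was found in 0.0570% of promoters and lay at -88 to -72 in 1 of the 2 promoters listed for TXNIP. Among measured protein-coding genes with a listed promoter, the metal element core was in 70.1% of 194 genes at least 2-fold higher. It was in 70.4% of 71 genes at least 2-fold lower and in 70.7% of all 9227. For the 2-unit heat shock form these shares were 15.98%, 16.90% and 13.03%. The 3-unit form was in 2 higher genes, HSPA6 and HYPK, and 0 lower ones. The paired E-box form was in 2 higher genes, ATP5ME and MYL5, and 1 lower gene, TXNIP. These shares were not tested. A match is a run of letters and not a measured binding site. MT1G, MT1M, MT1F and MT1E had no entry in the promoter table.

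Over all measured genes, 465 were at least 2-fold higher in treated 22Rv1 (3.48%) and 136 were lower by that factor (1.02%). The higher genes made up 77.4% of those past 2-fold. The median change of all measured genes was -0.01, with quartiles of -0.34 and 0.34, and 49.4% lay above 0. Past 4-fold there were 50 higher genes, of which 20 were protein-coding, and 14 lower ones, of which 3 were. Protein-coding genes held 273 of the higher and 102 of the lower genes (11361 measured). Small RNA classes, whose transcripts mostly lack poly(A) tails, held 98 of the higher and 19 of the lower genes, and 174 of the higher genes overlapped another measured gene on the same strand, against 12.9% of all measured genes. The split depended on scaling: with the FPKM sums of the libraries (356195 untreated and 408628 treated) made equal, 252 genes were higher and 341 lower (42.5% higher), and with the sums of nuclear protein-coding genes made equal, 224 and 396 (36.1%). Under these scalings the median of all measured genes shifted to -0.18 and -0.21. Removing the trend with transcript length left 305 higher and 188 lower (61.9%), and removing those with length and GC content together, a setting chosen after seeing the data, 201 and 204 (49.6%). All 159 named genes past 2-fold kept the sign of their change under each of these settings, but the scalings are too small to reverse a change of that size. Of the 159, 138 stayed past 2-fold with equal FPKM sums and 137 with equal sums of nuclear protein-coding genes. With the length trend removed 98 did, and with the length and GC trends removed 88. The plot of treated against untreated levels shows where the groups described here lie.

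**Figure D1:**
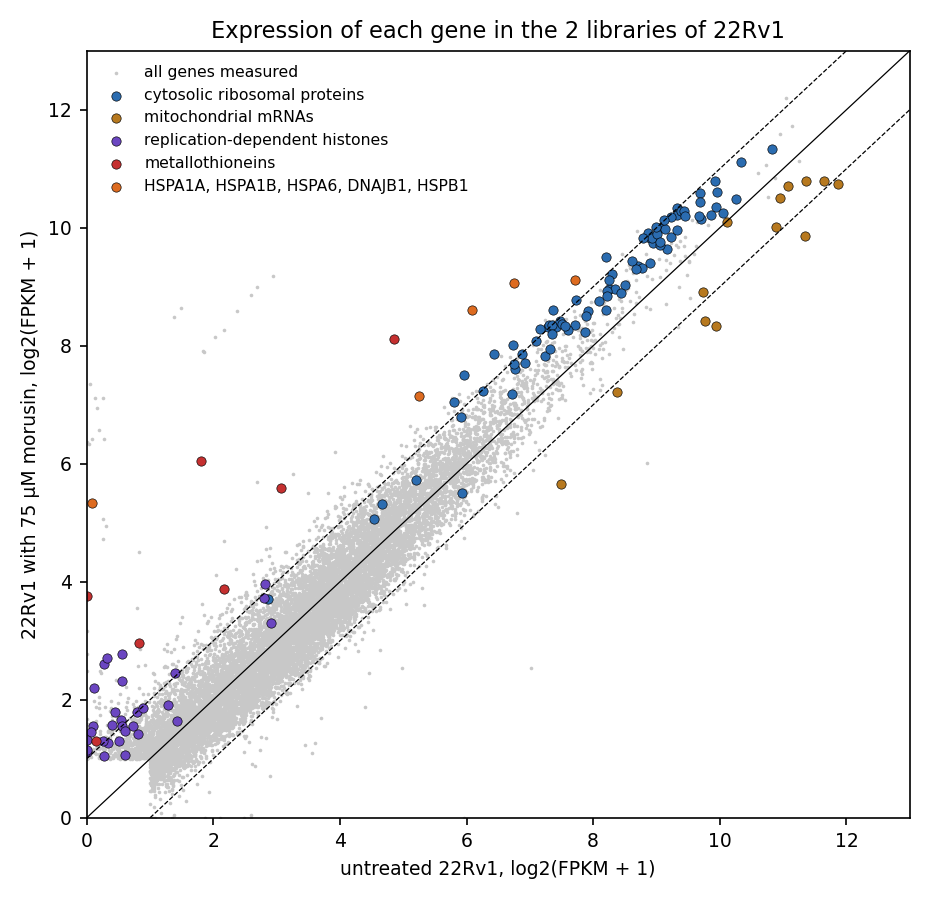
Each point is 1 of 13361 genes, with its log2(FPKM + 1) in untreated 22Rv1 on the x axis and in treated 22Rv1 on the y axis. The solid line marks equal levels and the dashed lines 2-fold changes. Metallothioneins and the 5 heat shock genes lie above the upper dashed line, ribosomal protein genes run between it and the line of equal levels apart from 16 past it and RPL7L1 below equality, and the mitochondrial mRNAs lie on or below the line of equal levels.

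The metallothioneins were the gene family with the highest median change of the 61 lists. All 7 measured members, of 11 asked for, were at least 2-fold higher in the treated library, their median change was 2.52, and their summed level was 42.1 FPKM untreated and 422 FPKM treated, a ratio of 10.0. MT2A, the most abundant member, read 27.8 FPKM untreated and 276 FPKM treated, a change of 3.26. MT1G read 2.51 and 65.0 FPKM, a change of 4.23. MT1X read 7.39 and 47.1 FPKM (2.52), MT1F 0.779 and 6.75 FPKM (2.12), MT1E 3.49 and 13.7 FPKM (1.71), and MT1H 0.109 and 1.46 FPKM (1.15). MT1M was listed at 0 untreated and at 12.6 FPKM treated. MT1F, MT1H and MT1M reached 1 FPKM in the treated library alone, so they count as measured because they were high there. MT1E, MT1X, MT2A and MT1G reached 1 FPKM untreated as well, with changes of 1.71, 2.52, 3.26 and 4.23. These genes are near-identical neighbours on chromosome 16, so the split of reads among them is uncertain, whereas their sum is less so. With the length and GC trends removed, the median of the family was 2.11.

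Genes that move zinc did not share this pattern. Of 17 measured zinc exporters, importers and the regulator MTF1, 1 was at least 2-fold higher and 13 were below 0, with a median of -0.43. The exception was SLC39A4, a zinc importer of the plasma membrane, at 17.6 FPKM untreated and 38.9 FPKM treated (1.10). SLC30A1, the plasma membrane zinc exporter and a textbook MTF1 target, read 5.16 and 5.76 FPKM (0.13), with 2 core matches in its promoter, and MTF1 itself 4.19 and 2.49 FPKM (-0.57). The transcripts of this list have a median of 3144 bases. With the length and GC trends removed, SLC39A4 was at 0.68, short of 2-fold, and MTF1 at -0.06. The change of SLC30A7, in contrast, went from -0.52 to -0.69. In PC3, MT1G was listed at 0 in both libraries, MT2A read 442 and 1031 FPKM (1.22), MT1X 16.2 and 103 FPKM (2.59), and SLC30A1 2.62 and 6.75 FPKM (1.10).

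Among heat shock genes the difference was large in the inducible HSP70 genes and DNAJB1 and small in most other chaperones. HSPA6, the strictly inducible HSP70 gene, read 0.0657 FPKM untreated and 39.3 FPKM treated (5.24). HSPA1A read 66.9 and 389 FPKM (2.52) and HSPA1B 106 and 534 FPKM (2.32). These neighbours have near-identical sequences, and their sum was 173 FPKM untreated and 923 FPKM treated, a ratio of 5.33. DNAJB1, the J-domain partner that hands substrates to HSP70, read 37.1 and 141 FPKM (1.90), and HSPB1, the small heat shock protein HSP27, 209 and 556 FPKM (1.40). HSF4, a relative of HSF1, read 11.3 and 29.7 FPKM (1.32), while HSF1 itself read 36.6 and 50.6 FPKM (0.46). With the length and GC trends removed the changes were 5.09 for HSPA6, 2.27 for HSPA1A, 2.14 for HSPA1B and 1.85 for DNAJB1. HSPB1 and HSF4 were then short of 2-fold, at 0.70 and 0.78, and HSF1 was at 0.11.

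Other genes that are textbook HSF1 targets differed by less than 2-fold. HSPH1, an HSP110 exchange factor, read 30.2 FPKM untreated and 30.02 FPKM treated, BAG3, an HSP70 cochaperone, 14.7 and 12.96 FPKM, and HSPA8, the constitutive HSP70, 791 and 829 FPKM. HSP90AA1, the inducible cytosolic HSP90, read 592 and 676 FPKM (0.19), HSPD1, the mitochondrial chaperonin, 772 and 755 FPKM (-0.03), and HSPE1, its partner, 259 and 427 FPKM (0.72). With the length and GC trends removed HSP90AA1 was at 0.52 and HSPE1 at 0.32. Of the 19 measured HSP70 family members and exchange factors, 4 were at least 2-fold higher and 11 were below 0, with a median of -0.02. Of 20 genes for HSP90, its cochaperones, small heat shock proteins and heat shock factors, 2 were at least 2-fold higher and 16 above 0, with a median of 0.31. In PC3, HSPA6 read 1.28 and 132 FPKM (5.86), HSPA1A and HSPA1B together 263 and 2838 FPKM, and DNAJB1 136 and 982 FPKM (2.85). The range plot of stress genes sets the untreated and treated level of each gene side by side.

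**Figure D2:**
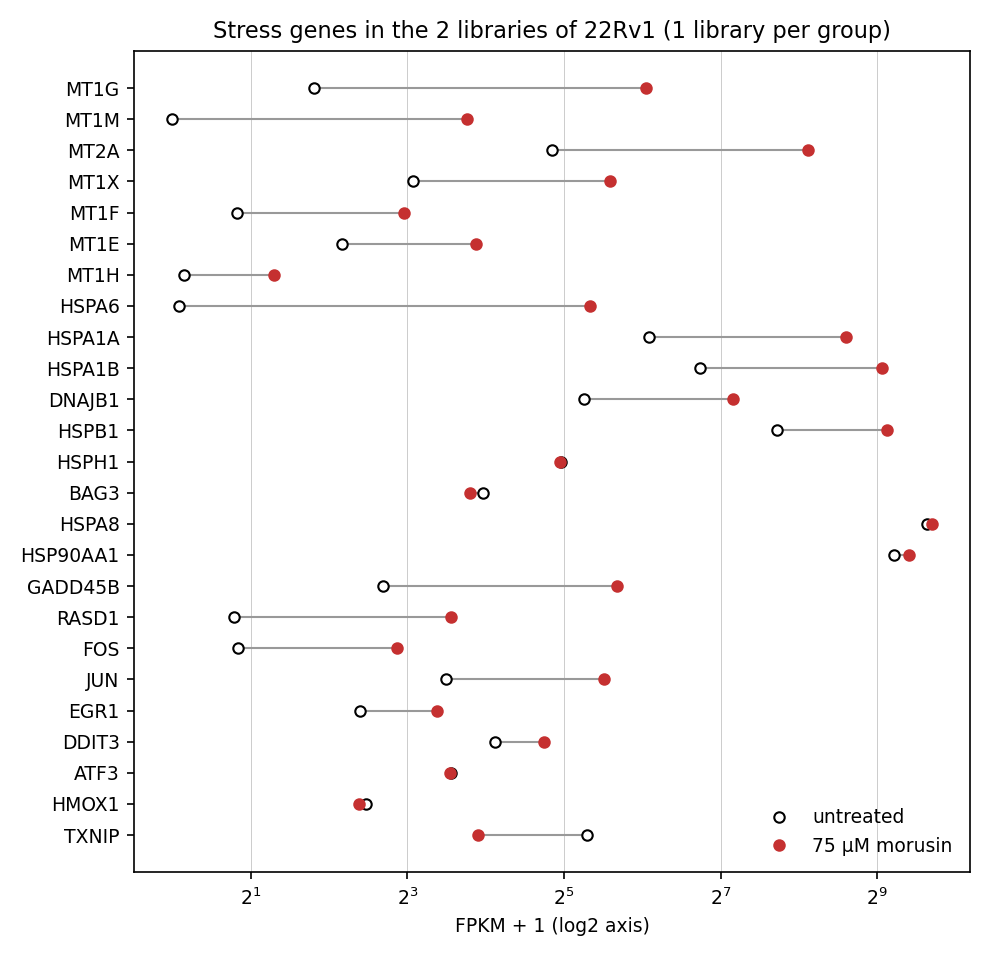
FPKM + 1 of stress genes on a log2 axis in untreated 22Rv1 (open points) and in 22Rv1 with 75 µM morusin (filled points), 1 library each, so no error bars are drawn. The filled points of the metallothioneins, HSPA6, HSPA1A, HSPA1B, DNAJB1, GADD45B, RASD1, FOS and JUN lie far to the right of the open ones, those of HSPH1, BAG3, HSPA8, ATF3 and HMOX1 almost on them, and that of TXNIP to the left.

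Few stress kinase and immediate early genes were past 2-fold: 1 of 16 measured in the GADD45 and stress kinase list was higher by that factor, with 10 below 0 (median -0.15), as were 2 of 18 in the immediate early list. GADD45B, which binds and activates a kinase upstream of JNK and p38, read 5.43 FPKM untreated and 50.4 FPKM treated (2.998). JUN and FOS, the partners that form the AP-1 factor, read 10.3 and 44.5 FPKM (2.01) and 0.784 and 6.30 FPKM (2.03). RASD1, a RAS-like small GTPase, read 0.734 and 10.8 FPKM (2.76). EGR1 read 4.27 and 9.42 FPKM (0.98) and JUND 29.3 and 56.8 FPKM (0.93), both short of 2-fold on this scale. The immediate early list lay on either side of 0: 10 of 18 members were below 0, with a median of -0.03, and ATF3 (10.8 and 10.7 FPKM) and JUNB (13.6 in both) barely differed. KLF10 read 13.4 and 7.62 FPKM (-0.74) and BTG2, an antiproliferative gene, 5.55 and 2.72 FPKM (-0.82). In PC3 the same list had a median of 0.84, with 7 of 18 at least 2-fold higher, where 1.24% of the 12907 genes measured in that line were higher and 2.64% lower by this factor and 55.8% lay below 0. Among the 7 were ATF3 (2.25) and KLF6 (2.90), which stood in 22Rv1 at -0.01 and -0.22. None of 9 MAP kinase phosphatases was past 2-fold in 22Rv1, where DUSP1 read 4.24 and 4.67 FPKM (0.11), while DUSP1 was at 3.13 in PC3.

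In the Hippo and TGF-beta lists most measured genes lay below 0, as did 11 of 17 in the STAT3 and SOCS list (median -0.28) and 4 of 7 in the EGF receptor list (median -0.23). EGFR, the epidermal growth factor receptor, read 97.2 FPKM untreated and 55.4 FPKM treated (-0.80), and SOCS7, a suppressor of cytokine signalling, 22.0 and 8.07 FPKM (-1.34). Of 20 Hippo pathway genes and YAP targets, 18 were below 0, with a median of -0.38, led by AMOT, a scaffold that binds YAP, at 19.3 and 7.16 FPKM (-1.31). The YAP target CCN1 went the other way, with the highest change of the list, 0.95, and 0.94 with the length and GC trends removed. It was below 5 FPKM in both libraries. Of 20 genes of TGF-beta and BMP signalling 14 were below 0, with a median of -0.44, and ID1, a BMP target, read 86.5 and 51.3 FPKM (-0.74). MYC, the growth-driving transcription factor, read 149 and 69.6 FPKM (-1.09) in 22Rv1, whereas in PC3 it read 65.7 and 219 FPKM (1.72). With the length and GC trends removed the medians were -0.27 for the Hippo list, -0.19 for the TGF-beta list, -0.18 for the STAT3 list and 0.02 for the EGF receptor list. The changes were then -0.23 for EGFR, -0.87 for SOCS7, -0.84 for AMOT and -1.58 for MYC.

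Unfolded-protein, amino acid and oxidative stress genes gave few changes past 2-fold. In the integrated stress response, the pathway in which phosphorylated eIF2 favours translation of ATF4, 1 of 30 members was at least 2-fold higher and the median was -0.03. That gene was PPP1R15A, a phosphatase subunit that ends the response, at 8.36 and 17.9 FPKM (1.01). ATF4 read 188 and 253 FPKM (0.42) and DDIT3, the transcription factor CHOP, 16.4 and 25.9 FPKM (0.63), while SLC7A11, the cystine transporter, read 5.07 and 2.30 FPKM (-0.88). In PC3, DDIT3 was at 3.15 and PPP1R15A at 2.45. Of 24 NRF2 targets and ferritin genes none was past 2-fold: TXNRD1, thioredoxin reductase, read 61.1 and 33.9 FPKM (-0.83), GCLC, of glutathione synthesis, 42.6 and 27.0 FPKM (-0.64), HMOX1 4.57 and 4.24 FPKM (-0.09), and the short GC-rich GPX1 132 and 256 FPKM (0.95). The median of that list, 0.12, changed sign with the scaling. None of 24 endoplasmic reticulum chaperones and degradation factors was past 2-fold, and SDF2L1 had the highest change, 26.9 and 52.3 FPKM (0.93).

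TXNIP, whose promoter is shown above with its paired E-box form, read 38.2 FPKM untreated and 13.9 FPKM treated (-1.40), and was lower in PC3 too, at 15.1 and 4.38 FPKM (-1.58). ARRDC4, a related arrestin, read 4.47 and 2.60 FPKM (-0.60) in 22Rv1, and its listed promoter held 0 matches of the paired E-box form. The remaining arrestins ARRDC1, ARRDC2 and ARRDC3 were at 0.91, 0.41 and -0.12.

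Ribosomal protein and respiratory chain genes were higher in nearly every member, by amounts below 2-fold for most. Of 84 cytosolic ribosomal protein genes, 83 were above 0 and 16 at least 2-fold higher, with a median of 0.79, and RPL7L1 was the gene below 0 (60.2 and 44.2 FPKM). RPL37 read 61.2 and 181 FPKM (1.55) and RPS29 85.2 and 231 FPKM (1.43). Of the nuclear genes of complex I, the entry point of electrons, 35 of 37 were above 0 and 5 at least 2-fold higher (median 0.67), with NDUFA7 at 53.8 and 138 FPKM (1.34). All 19 measured genes of complexes III and IV were above 0 (median 0.78), with COX6B1 at 106 and 254 FPKM (1.25). Of 18 ATP synthase genes 16 were above 0 (median 0.81), with ATP5MK at 92.0 and 226 FPKM (1.29), whereas ATP5F1A (285 and 245 FPKM) and ATP5F1B (729 and 688 FPKM) were below 0. Mitochondrial ribosomal protein genes had 62 of 77 above 0 and a median of 0.46. These genes have short transcripts, with a median of 799 bases for cytosolic ribosomal protein genes. After removal of the length and GC trends the medians were 0.37 for cytosolic ribosomal proteins, 0.38 for complex I, 0.40 for complexes III and IV, 0.41 for ATP synthase and 0.14 for mitochondrial ribosomal proteins.

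Noncoding hosts of small nucleolar RNAs, whose spliced RNA carries the same terminal pyrimidine tract as ribosomal protein mRNAs in several cases, had 21 of 26 above 0 and 7 at least 2-fold higher (median 0.38). GAS5 read 173 and 349 FPKM (1.01), SNHG17 11.5 and 32.9 FPKM (1.44) and SNHG6 35.1 and 83.8 FPKM (1.23). The translation factors, in contrast, had a median of 0.11 that changed sign with the scaling, and EIF4EBP2, a translation repressor, read 29.6 and 13.8 FPKM (-1.05). Ribosome biogenesis factors did so too, at a median of 0.08, with NOP2, an rRNA methyltransferase, at 24.7 and 69.2 FPKM (1.45) and POLR1B, a subunit of RNA polymerase I, at 13.2 and 5.95 FPKM (-1.03). The plot of list medians gives each list beside the spread of all genes.

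**Figure D3:**
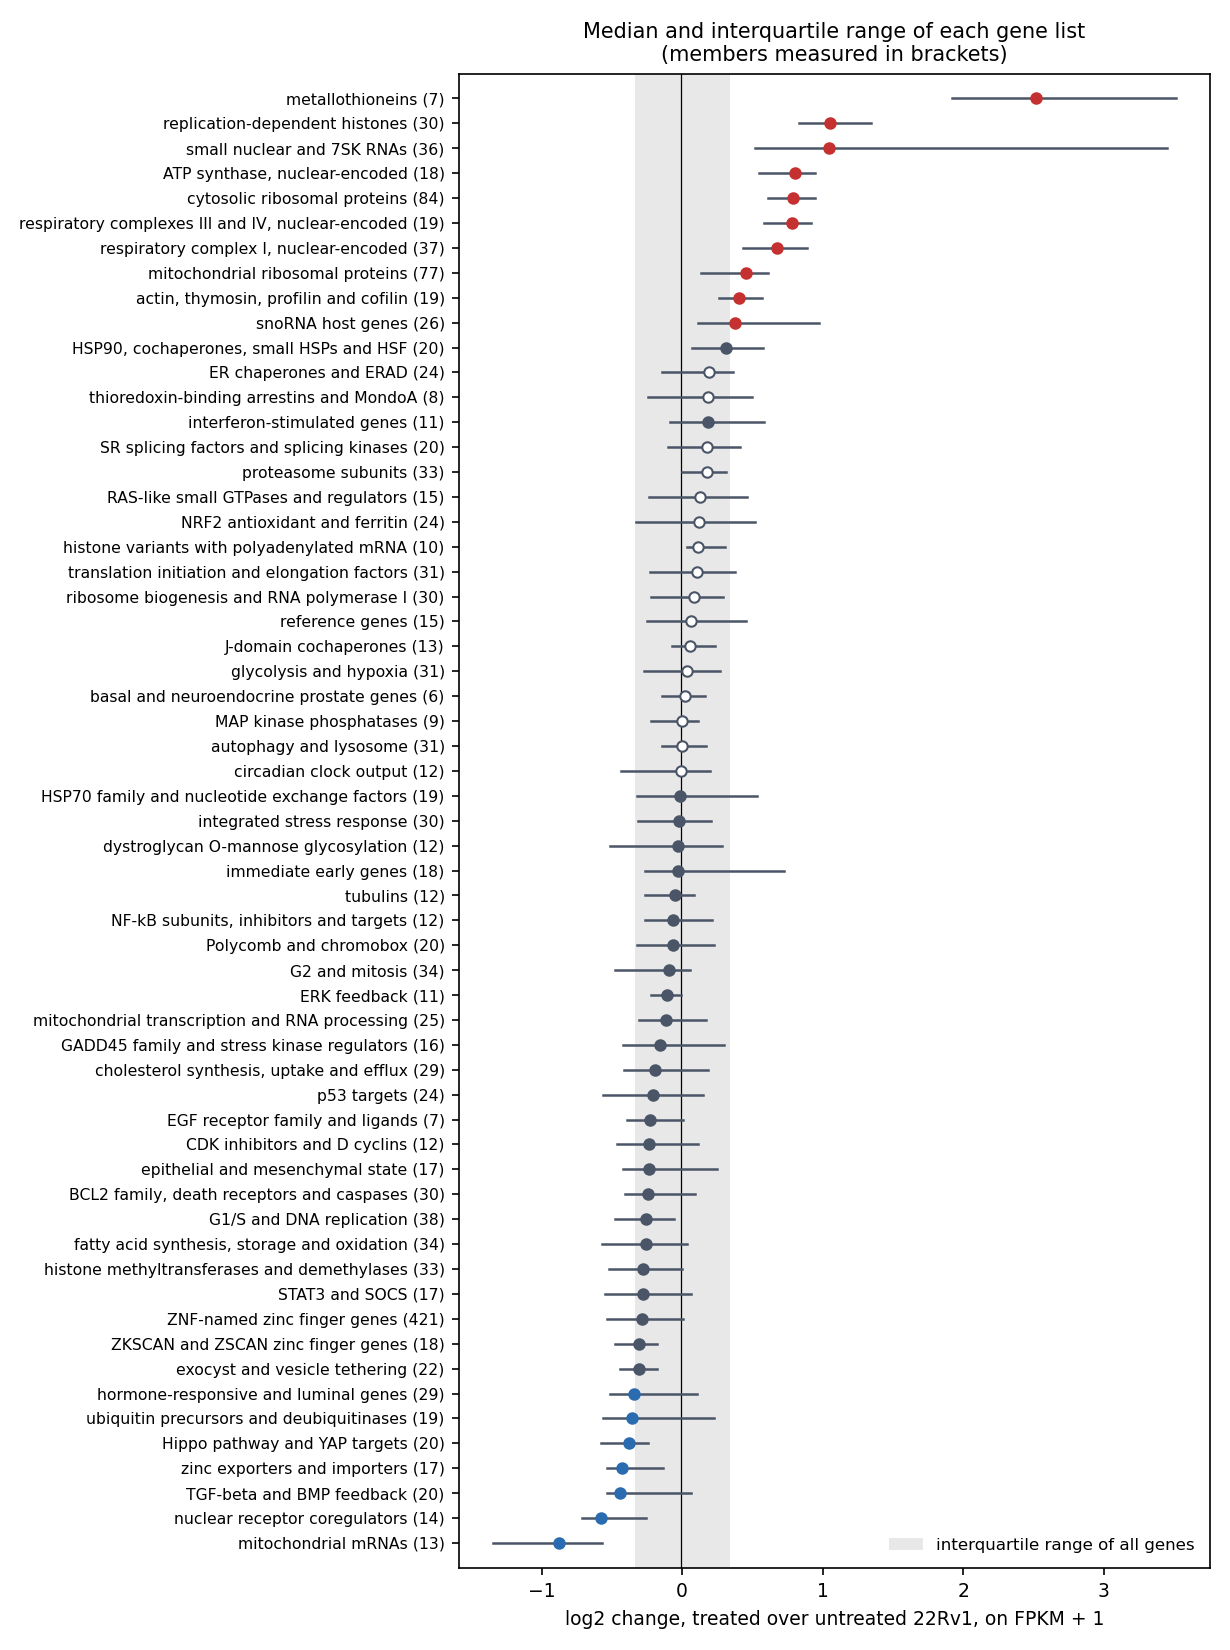
Median (point) and interquartile range of the members (line) of the log2 change of each gene list with 5 or more measured members in 22Rv1, with the number measured in brackets. The grey band is the interquartile range of all 13361 genes, from -0.34 to 0.34, red and blue points lie above and below it, and open points mark lists whose median changes sign with the scaling of the libraries. Metallothioneins stand at the top at 2.52 and mitochondrial mRNAs at the bottom at -0.88.

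The rows of U1 and of ribosomal RNA, which lack poly(A) tails, had larger ratios of summed FPKM than the metallothioneins. The 143 rows of U1, the small nuclear RNA that recognises the 5′ splice site, summed to 4.85 FPKM untreated and 995 FPKM treated, a ratio of 205, and to 3.31 and 17.2 FPKM in PC3. The 8 measured rows of ribosomal RNA summed to 33.1 and 3001 FPKM (24.7 and 276 in PC3), and both MIR3648 rows, which lie in the ribosomal RNA repeat, to 3.40 and 759 FPKM (2.23 and 25.6 in PC3). RN7SK, which holds the elongation kinase P-TEFb inactive, read 8.61 and 55.4 FPKM (2.55), and RMRP, of the RNase that processes ribosomal and mitochondrial RNA, 0.899 and 5.04 FPKM. Of measured genes by class, 28 of 40 small nuclear RNA rows and 20 of 59 small nucleolar RNA rows were at least 2-fold higher. Replication-dependent histone mRNAs end in a stem-loop in place of a tail. Of 65 such genes found, 30 were measured, of which 30 were above 0 and 17 at least 2-fold higher (median 1.05). Their summed level was low, at 31.7 FPKM untreated and 102 FPKM treated. H1-5 read 0.256 and 5.56 FPKM and H1-4 0.203 and 5.11 FPKM. Genes like these count as measured through the treated library alone and had to lie above 0. The counts of histone genes and of small RNA rows are thus partly fixed by that rule. Polyadenylated histone variants had none of 10 past 2-fold, with a median of 0.11 that changed sign with the scaling, and H2AX read 193 and 199 FPKM. The library kit named in the labels selects poly(A) RNA, so the treated library held a larger share of RNA that such a kit removes, and the part of this in the other differences described here was not tested.

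The mitochondrial genome ran against its nuclear partners. All 13 mitochondrial mRNAs were below 0, 6 were at least 2-fold lower, their median was -0.88, and their sum was 22550 FPKM untreated and 12789 FPKM treated, a ratio of 0.567. The ratio in PC3 was 0.610 (14871 and 9073 FPKM). The size of the difference varied along the genome. MT-ND6, the only mRNA encoded on the minus strand, read 178 and 49.8 FPKM (-1.82), MT-ND5 982 and 320 FPKM (-1.61), MT-CO2 2611 and 932 FPKM (-1.48) and MT-ND1 867 and 341 FPKM (-1.34). MT-CO1, the core of complex IV, read 3733 and 1718 FPKM (-1.12), MT-ND4 2170 and 1677 FPKM (-0.37), and MT-CYB 1106 and 1097 FPKM (-0.01). The ribosomal RNAs MT-RNR1 and MT-RNR2 together read 2682 and 2457 FPKM. In PC3 they went the other way, at 2677 and 3015 FPKM together, with MT-RNR1 at 260 and 510 FPKM (0.97). Of 17 measured mitochondrial tRNA genes 14 were at least 2-fold lower (median -2.22), and the sum over the 22 tRNA rows was 900 and 159 FPKM, against 1016 and 151 FPKM in PC3. Some of the 17, such as MT-TQ (5.01 and 0 FPKM), reached 1 FPKM untreated alone and so had to lie below 0. The tRNA genes are shorter than the reads, so their values come from fragments that also hold neighbouring sequence. Nuclear genes for mitochondrial transcription and RNA processing had no member past 2-fold of 25 (median -0.12), among them TFAM at 12.2 and 9.73 FPKM, POLRMT, the mitochondrial RNA polymerase, at 32.9 and 38.4 FPKM, and FASTKD5, needed to process noncanonical junctions of the primary transcript, at 11.04 and 5.61 FPKM (-0.86).

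**Figure D4:**
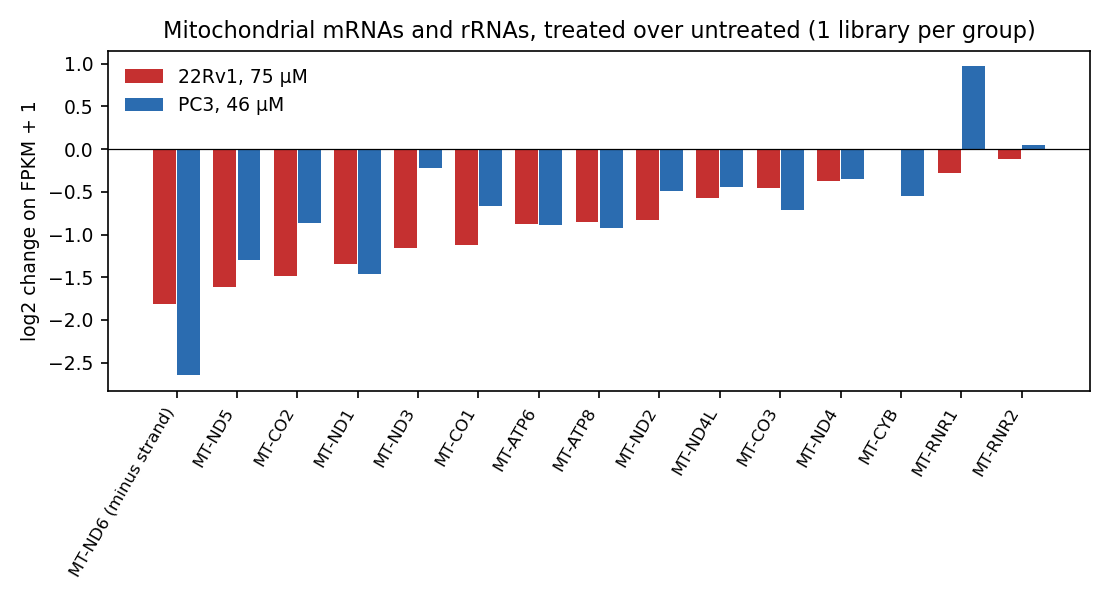
Log2 change on FPKM + 1 of the 13 mitochondrial mRNAs and 2 ribosomal RNAs, treated over untreated, in 22Rv1 (75 µM) and PC3 (46 µM). Each bar is 1 library against 1, so no error bars are drawn. The largest negative bars are those of MT-ND6, and MT-CYB is at -0.01 in 22Rv1.

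The lower protein-coding genes named here have several functions. EXOC5, a subunit of the exocyst that tethers vesicles to the plasma membrane, read 23.9 and 6.19 FPKM (-1.79). That was the lowest change of nuclear protein-coding genes of 5 FPKM or more that overlap no other measured gene on their strand. EXOC8 of the same complex read 7.87 and 3.42 FPKM (-1.004), while EXOC3 was at 0.42. Of 22 exocyst and vesicle tethering genes 20 were below 0 and 2 at least 2-fold lower (median -0.31). Their transcripts have a median of 4720 bases. POMK, a kinase that phosphorylates O-mannose on dystroglycan, read 18.6 and 6.06 FPKM (-1.47). Of the 12 measured genes of dystroglycan O-mannose glycosylation 7 were below 0 (median -0.03). The zinc finger factor ZKSCAN1 read 32.1 and 11.4 FPKM (-1.42), CBX5, the heterochromatin protein HP1 alpha, 88.9 and 37.6 FPKM (-1.22), and MED13, a Mediator subunit, 14.7 and 5.64 FPKM (-1.24). FAM111B, which encodes a nuclear protease, read 61.0 and 25.8 FPKM (-1.21), SLC38A2, an amino acid transporter, 131 and 58.4 FPKM (-1.15), MAT2A, which makes S-adenosylmethionine, 86.5 and 39.1 FPKM (-1.12), and APC, a brake on beta-catenin, 12.5 and 4.99 FPKM (-1.17). Of these, CBX5 (16.2 and 5.45 FPKM, -1.41), ZKSCAN1 (-1.44) and MAT2A (-1.89) were past 2-fold lower in PC3 as well, whereas EXOC5 (-0.49), MED13 (-0.44), APC (-0.19) and FAM111B (0.32) were not. With the length and GC trends removed, EXOC5 was at -1.12, EXOC8 at -0.59, POMK at -1.65, ZKSCAN1 at -0.82, CBX5 at -1.20 and MED13 at -0.56. FAM111B was then at -0.89, SLC38A2 at -0.76, MAT2A at -0.91 and APC at -0.49.

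Lipid synthesis, luminal and cell cycle genes were below 0 more often than above it, with few members past 2-fold. Of 29 genes of cholesterol synthesis, uptake and efflux 20 were below 0 (median -0.19), with HMGCS1, the HMG-CoA synthase, at 55.5 and 35.1 FPKM (-0.65). Of 34 fatty acid genes 25 were below 0 (median -0.26), with SCD, the stearoyl-CoA desaturase, at 102 and 58.5 FPKM (-0.79). With the length and GC trends removed the medians were -0.22 for the cholesterol and -0.09 for the fatty acid genes, and SCD was at -0.44 and HMGCS1 at -0.41. Of 29 hormone-responsive and luminal prostate genes 20 were below 0 and none was past 2-fold (median -0.34): FKBP5, an HSP90 cochaperone, read 274 and 172 FPKM (-0.66), while KLK4 read 288 and 429 FPKM (0.57) and KLK2 13.1 and 20.4 FPKM (0.60). This median was -0.21 with the trends removed, and FKBP5 was at -0.38. Nuclear receptor coregulators had 11 of 14 below 0 and a median of -0.58, led by PIAS1 (10.3 and 5.24 FPKM) and NCOA2 (16.2 and 8.56 FPKM). Their transcripts are long, with a median of 7534 bases, and with the length and GC trends removed the median was -0.07.

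Of 38 genes of the G1/S transition and DNA replication 31 were below 0 and none was past 2-fold (median -0.26), among them CLSPN, of the replication checkpoint, at 15.5 and 8.09 FPKM (-0.86) and MCM4, of the replicative helicase, at 173 and 109 FPKM (-0.67). This median was -0.23 with the length and GC trends removed, and 0.23 in PC3. Of 34 mitotic genes 22 were below 0 (median -0.09), and ASPM, of the spindle pole, was at least 2-fold lower (20.6 and 9.02 FPKM, -1.11). Of 24 p53 targets 16 were below 0 (median -0.21), with TP53INP1 at 8.31 and 3.33 FPKM (-1.10), MDM2 at 20.1 and 10.4 FPKM (-0.89) and CDKN1A, the cell cycle inhibitor p21, at 16.2 and 8.93 FPKM (-0.80). Among 30 BCL2 family, death receptor and caspase genes none was past 2-fold (median -0.24), and MCL1, a survival protein with a short-lived mRNA, read 75.1 and 40.2 FPKM (-0.89). ZNF-named zinc finger genes were below 0 in 314 of 421 (median -0.29, and -0.06 with the trends removed).

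Protein-coding genes at least 2-fold higher and outside the lists were GC-rich, with a median GC content of 60.6% (202 genes). CCDC78 read 13.05 and 44.4 FPKM (1.69), KIFC2, a kinesin, 33.3 and 98.3 FPKM (1.53), MAPK8IP3, a scaffold of JNK signalling, 15.1 and 42.5 FPKM (1.44), and PLA2G6, a phospholipase, 15.4 and 41.6 FPKM (1.37). Members of lists at least 2-fold higher included the zinc finger gene ZNF692, at 36.0 and 95.3 FPKM (1.38). CLK2, a kinase of splicing factors, read 44.6 and 98.0 FPKM (1.12), and TMSB10, a thymosin that binds actin, 2117 and 4698 FPKM (1.15). In PC3, KIFC2 was at 0.42, MAPK8IP3 at 0.26, CLK2 at 0.30 and TMSB10 at 0.33.

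Transcript length and GC content moved with the change over all 11348 nuclear protein-coding genes with an annotated transcript. Genes at least 2-fold higher had a median transcript of 1562 bases with 59.5% GC and a median intron mean of 733 bases, all genes 2840 bases, 49.7% and 2909 bases, and genes at least 2-fold lower 4232 bases, 44.8% and 4284 bases. Across genes, which are not independent replicates, the Spearman correlation of the change was -0.561 with length and 0.490 with GC content. In 5 equal classes from the shortest to the longest transcripts the median change was 0.39, 0.10, -0.07, -0.24 and -0.42, and in 5 classes from the lowest to the highest GC content -0.33, -0.22, -0.09, 0.13 and 0.33. Both features counted together: with 3 classes of each, short transcripts with high GC had a median of 0.41, long ones with low GC -0.46, short ones with low GC 0.09 and long ones with high GC 0.06. In PC3 the length classes ran from 0.16 to -0.31 and the GC classes from -0.11 to 0.01. By chromosome, chromosome 19, whose genes had a median GC content of 60.3%, stood at a median of 0.22 over 902 genes, and chromosome 4, with 42.7% GC, at -0.25 over 366. The part of these trends in the differences of single genes was not tested beyond the values given with the trends removed.

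**Figure D5:**
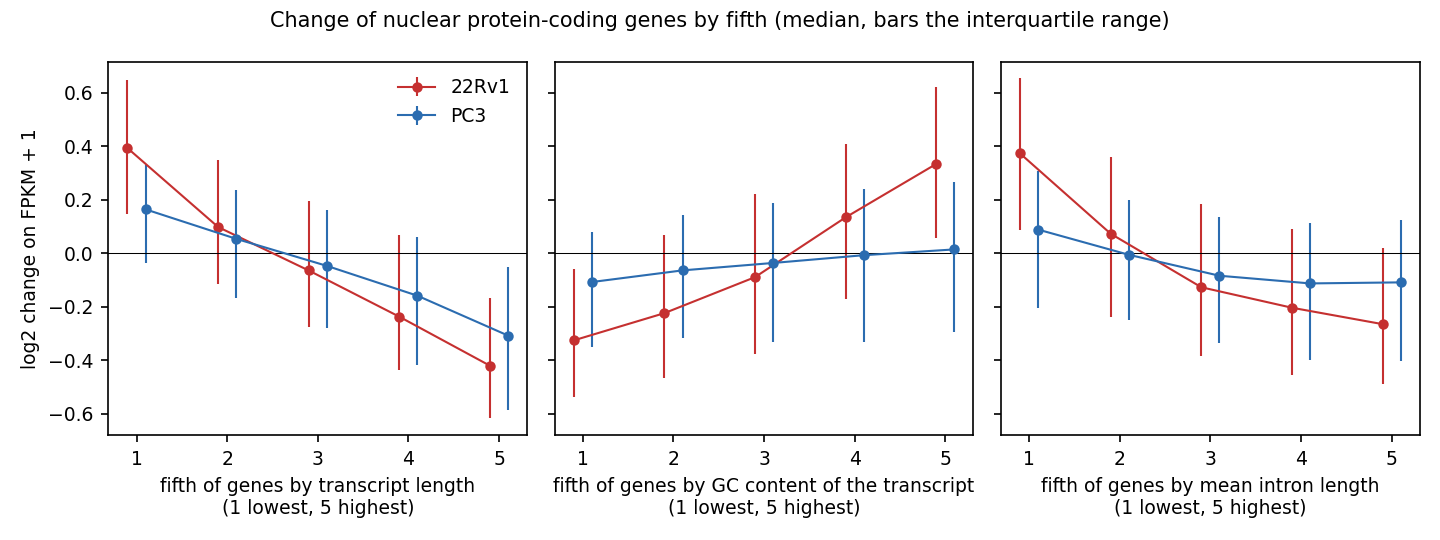
Median log2 change (points) and interquartile range (bars) in 5 equal classes of nuclear protein-coding genes ordered by transcript length, GC content and mean intron length, in 22Rv1 and PC3. In 22Rv1 the median goes from 0.39 in the shortest to -0.42 in the longest class and from -0.33 to 0.33 with GC content, and in PC3 the GC line runs from -0.11 to 0.01.

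Some large changes belong to rows that share reads, and the sources used here do not say whether the counting took strand into account. Overlap was looked for on the same strand alone. Genes that overlap on opposite strands may share reads as well and are not listed here. MATR3, a nuclear matrix protein, has a pair of overlapping rows at 41.9 and 97.7 FPKM and at 111 and 34.8 FPKM, which summed to 152 and 133 FPKM. C7orf25 (11.99 and 2.22 FPKM) overlaps the proteasome gene PSMA2 through a shared readthrough locus, and their sum was 55.9 and 30.3 FPKM in 22Rv1 and 21.6 and 65.0 FPKM in PC3. PMF1-BGLAP (8.97 and 2.72 FPKM) overlaps PMF1, and their sum was 77.7 and 77.2 FPKM. UPK3BL1 and UPK3BL2, near-identical copies, read 5.32 and 0.843 FPKM and 6.36 and 20.8 FPKM, with sums of 11.7 and 21.6 FPKM. HSF4, HSPA1B, HSPE1, NDUFA7, NOP2, FASTKD5, TXNRD1 and MDM2 each overlap another measured gene on the same strand as well, and DDIT3, FKBP5, HSPA8, ATP5F1B and SNHG17 overlap a measured microRNA or small nucleolar RNA row, so the split of their reads is uncertain.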

How the data were processed

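RNA-seq was done on untreated and morusin-treated 22Rv1 and PC3 cells, 1 library per group, with 150-base paired reads from a TruSeq RNA v2 library, per the labels' protocols. The FPKM values per gene were made by the authors and deposited as 1 table with a column per library. The build GRCh38 and the tools HISAT2, Trimmomatic and StringTie are listed, per the submitters' processing notes, with roles, versions and annotation not given in the sources used here. No column of the table was left out.

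From these values the log2 change on FPKM + 1 was computed with Python 3.11.15, numpy 2.4.6 and pandas 2.3.3 for genes with 1 FPKM or more in either library of 22Rv1, counted by gene ID. Gene classes, transcript lengths, GC content and overlaps came from GENCODE 29 (13310 measured genes had a length, taken from the median-length transcript of the best annotation class), and promoters from the RefSeq table of GRCh38.p14. Length and GC trends were removed with a running median over 201 genes. Depth was estimated from the step between low FPKM values, and the scripts for depth and for counts of changes were tested on simulated data. Depth came back either as simulated or off by a factor of 2.

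The named genes were, among genes of 5 FPKM or more that are not pseudogenes and not on chromosome Y, the 25 highest and 25 lowest changes, and from each list up to 8 members with the largest absolute change, or all members of lists with 14 or fewer measured. A further rule, added after the values were seen, names the 30 highest and 40 lowest nuclear protein-coding genes that overlap no measured gene on their strand. A few other list members (HSPH1, BAG3, HSF1, ATF3, ATF4, HMOX1, POLRMT and the like) were named after their values were seen. The comparison and the lists were chosen with earlier results of these data known. No test was possible with 1 library per group, so lists are given by counts and medians. Alternatives changed the pseudocount, the FPKM minimum, the scaling, the gene classes and the length and GC trends. Some single genes are not reported here.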

Additional observations from a re-analysis of the deposited data

Results flagged for a closer look

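Genes past 2-fold in opposite directions in the 2 lines were looked for, and 3 were found. The difference between the lines was not tested, and line, medium and dose differ together.

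MYC had a log2 change of -1.09 in 22Rv1 (149 FPKM untreated, 69.6 FPKM treated) and of 1.72 in PC3 (65.7 and 219 FPKM). C7orf25 was at -2.01 in 22Rv1 (11.99 and 2.22 FPKM) and at 1.92 in PC3 (2.48 and 12.2 FPKM), and shares its locus with PSMA2. PMF1-BGLAP was at -1.42 in 22Rv1 (8.97 and 2.72 FPKM) and at 1.37 in PC3 (2.85 and 8.95 FPKM), while its sum with PMF1 was 77.7 and 77.2 FPKM in 22Rv1 and 33.1 and 37.2 FPKM in PC3.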

How the results depend on the processing

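No paired analysis was possible because each group has 1 library. Leaving out a library leaves no comparison, so it was not run. The counts of genes at least 2-fold higher and lower, 465 and 136, moved with most settings. They were 844 and 376 with a pseudocount of 0.1, 151 and 33 with a pseudocount of 5, 252 and 341 with equal FPKM sums, and 224 and 396 with equal sums of nuclear protein-coding genes. The higher count was 273 in protein-coding genes alone, 305 with the length trend removed and 201 with the length and GC trends removed. Without small RNA, mitochondrial and overlapping genes, a setting chosen after seeing the data as was the GC trend, the counts were 254 and 88. With no FPKM minimum both counts stayed at 465 and 136, as they had to, because a 2-fold change on FPKM + 1 requires at least 1 FPKM. With a minimum of 5 FPKM they were 321 and 115, and median centring gave 484 and 129. Of the 159 named genes past 2-fold, all kept their sign in every setting in which they were present. The pseudocounts and scalings used could not have reversed the sign of a change of that size. Past 2-fold there remained 88 with the length and GC trends removed, 94 with a pseudocount of 5 and 138 with equal FPKM sums. Of 61 lists, 17 had a median that changed sign with the scaling, among them J-domain cochaperones, NRF2 targets, proteasome subunits and endoplasmic reticulum chaperones. The cause of these shifts was not tested. With 1 library per group neither biological nor technical spread can be estimated, and a difference of 2-fold may lie within it.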
